A study of Aspergillus nidulans with 6 samples.

Results

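The genes described here were 145 uncharacterised genes of *Aspergillus nidulans*, out of 1375 genes listed in the deposited RNA-Seq table, whose transcripts were higher in the *celA*Δ strain and, at the same time, higher in 1 of the 3 control cultures. They were chosen from the measured values themselves. A gene was taken if its annotation read only "conserved hypothetical protein" or "hypothetical protein", if its mean RPKM (read density, with gene length and library depth divided out) was higher in *celA*Δ, and if its position was above 0.5. The position places control 3 on a scale that runs to 1 at the mean of the *celA*Δ libraries and starts with 0 at the mean of controls 1 and 2, in log2(RPKM + 1). Of the 642 listed genes with a higher mean in *celA*Δ, 322 carried no other annotation. The loci of several gene clusters and the gene next to *celA*, 16 of these 322 genes, were left out. The remaining 306 genes divided into the 145 described here (114 conserved hypothetical and 31 hypothetical proteins) and 161 with a position at or under 0.5. Since the contrast of the strains and the level of control 3 chose the genes, both are given below as a description. Counts of calls from a fit over the whole table are shown beside the share of all listed genes called, and nothing is read from them.

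The *celA*Δ libraries came from 3 cultures of a strain in which the *celA* locus (ANIA_08444, annotated as a putative cellulose synthase) was replaced by the *argB* marker. They were set against 3 cultures of the recipient strain SAA.111, the control. Both strains share the markers veA1 and biA1, the riboB2 and pyroA4 alleles, and wA3, and SAA.111 has lost *argB* (ΔargB::trpC). Mycelium was harvested after 3 days at 37 °C in liquid minimal medium with glucose and ammonium tartrate, and polyadenylated RNA was sequenced. This is the time in the labels and methods, while the results text of the study names a later one. A single stable transformant was obtained, so the *celA*Δ cultures are 1 clone, and no library carries the *argB* insertion without the loss of *celA*. The effects of these 2 changes cannot be told apart here, and in bulk mycelium a larger share of cells of one type cannot be told apart from more RNA per cell.

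Proteins called hypothetical are predicted from the genome sequence alone. A conserved one has recognisable relatives in other species, but in neither case has a function been assigned. *A. nidulans* grows as branching hyphae and can form conidiophores, stalked structures that bud off asexual spores, the conidia. Conidiation is driven by a cascade of transcription factors with BrlA at its head, which upstream regulators such as the Myb-type factor FlbD help to switch on. It is usually held back in submerged culture. The veA1 allele, carried by both strains, lowers the dependence of conidiation on light.

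Mapped totals were 4176645 to 5205011 reads in the *celA*Δ libraries and 3300251 to 3706233 reads in the control libraries. Genes entered the deposited table through a selection by the authors on these same libraries, by their own test between the strains and a change of at least 2-fold, so the table is not a sample of the transcriptome. The deleted gene *celA* had 3.54, 3.64 and 4.29 RPKM in *celA*Δ 1, 2 and 3, against 26.6, 29.7 and 15.3 RPKM in controls 1, 2 and 3. The marker *argB* had 1471, 2467 and 2331 RPKM in *celA*Δ 1, 2 and 3, against 0.904, 1.02 and 0.464 RPKM in controls 1, 2 and 3. The *celA*Δ libraries thus kept 33, 38 and 36 reads on a locus said to be replaced as a whole, and the series description calls the strain downregulated. The study put these reads down to residual heterokaryons, which was not tested here. Control 3 had the lowest *celA* level of the control libraries, above every *celA*Δ library, and at 2 reads no more *argB* than the other controls.

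Control 3 stood apart from controls 1 and 2 in the 145 genes, as the rule required, and the size of the gap was as follows. Unique reads on these genes made up 4.48, 5.58 and 5.45% of the mapped reads in *celA*Δ 1, 2 and 3, against 0.553, 0.531 and 2.74% in controls 1, 2 and 3. The 95% Wilson intervals, which cover counting error only, were narrow, for example 4.47 to 4.50% in *celA*Δ 1 and 2.72 to 2.76% in control 3. The median level of the genes was 99.9, 113 and 121 RPKM in *celA*Δ 1, 2 and 3, against 9.76, 9.51 and 58.9 RPKM in controls 1, 2 and 3. In these medians controls 1 and 2 almost coincided, and control 3 lay between them and the *celA*Δ libraries. In log2(RPKM + 1) control 3 was nearer to the *celA*Δ mean in every gene, as the rule required. The summed RPKM of the genes was 64852, 91479 and 90019 in *celA*Δ 1, 2 and 3, so *celA*Δ 1 was the lowest of these. The position ran from 0.51 to 0.89 with a median of 0.69. On the linear scale the RPKM of control 3 was 6.16 to 82.1% of the *celA*Δ mean, with a median of 57.4%.

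**Figure D1:**
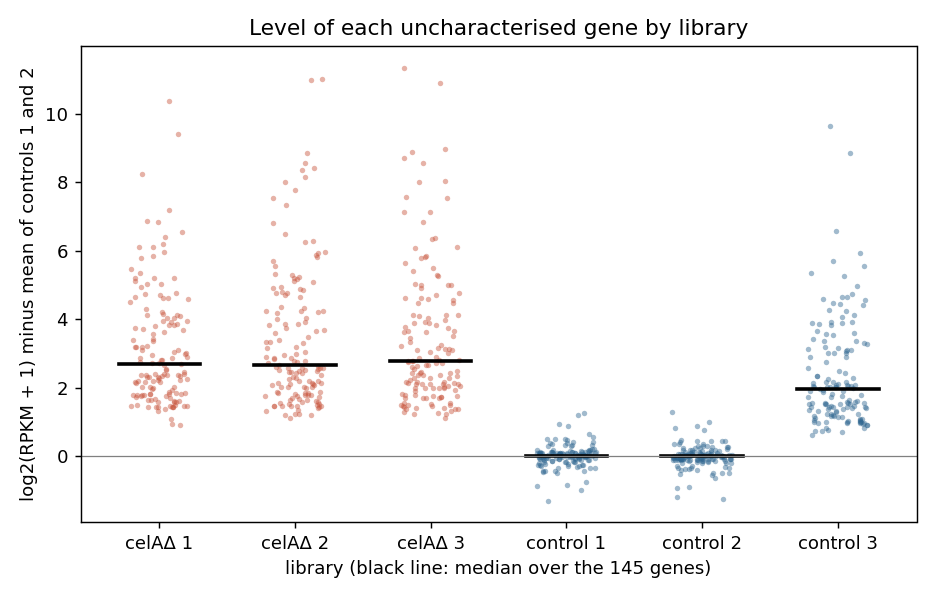
Level of each of the 145 genes in each library, in log2(RPKM + 1) after subtraction of the mean of controls 1 and 2, with *celA*Δ to the left and the control to the right (points, genes; black lines, medians over the genes). Controls 1 and 2 lie around 0 and control 3 has a median of 1.96, below the medians of the *celA*Δ libraries.

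In every one of the 145 genes each *celA*Δ library was above each control library, control 3 included. This holds for 46.7% of all listed genes, and for all 642 listed genes with a higher mean in *celA*Δ, so it is a property of the table. The lowest *celA*Δ library exceeded control 3 by 2.85 to 1059% in RPKM, with a median of 47.7%. The rise, here the mean of the *celA*Δ libraries minus that of controls 1 and 2, was 1.19 to 10.92 in log2(RPKM + 1) with a median of 2.72. The same difference for control 3 was 0.62 to 9.65, with a median of 1.96. In 40 genes the rise was under 2, in 62 it was 2 to 4, and in 43 it was 4 or more, 14 of these at 6 or more. In edgeR's quasi-likelihood test over all listed genes (Benjamini-Hochberg adjusted p under 0.05 and absolute log2 fold change over 1), 116 of the 145 genes were called, all higher in *celA*Δ, where 41.1% of all listed genes and 565 of the 642 with a higher mean were called higher. Without control 3 all 145 were called, with 45.4% of all listed genes called higher. Without *celA*Δ 1, 2 or 3 the count was 59, 55 or 51, with 31.1, 29.9 or 29.6% of all listed genes called higher. Without control 1 or 2 it was 49 or 37, with 28.1 or 27.1% of all listed genes called higher. The median log2 fold change of the 145 genes was 1.95 with all libraries and 2.97 without control 3, beside 1.89 and 2.43 for all 642 listed genes with a higher mean. Over all listed genes 565 were called higher and 722 lower, and with DESeq2, which changed both the test and the scaling, 613 were called higher and 346 lower.

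**Figure D2:**
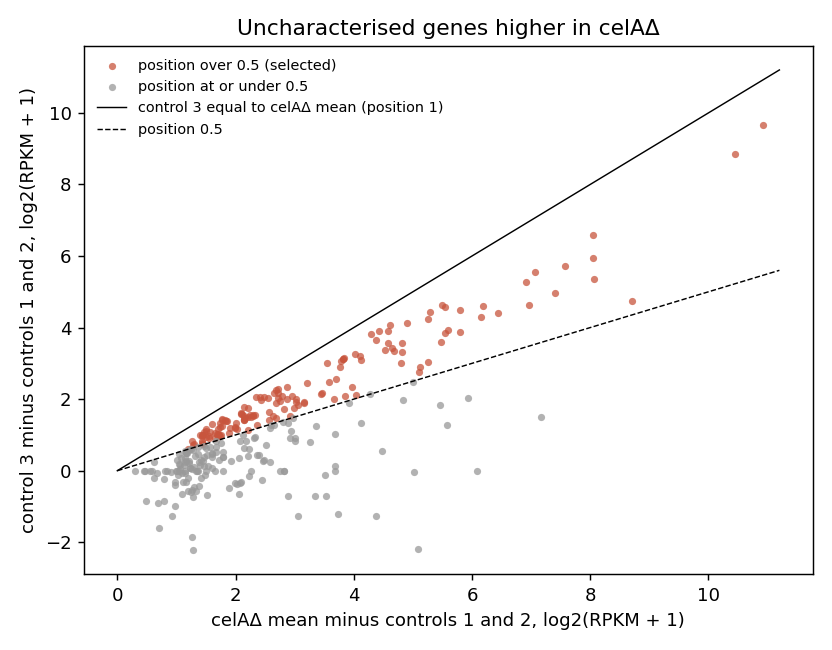
Control 3 (vertical axis) against the *celA*Δ mean (horizontal axis), both as the difference from the mean of controls 1 and 2 in log2(RPKM + 1), for the 306 uncharacterised genes with a higher mean in *celA*Δ. The 145 genes with a position over 0.5 lie above the dashed line and under the solid line, on which control 3 would equal *celA*Δ.

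Positions ran on without a gap across the lower edge of the selection. The lowest members were ANIA_10035 at a position of 0.506, ANIA_01691 and ANIA_06995 at 0.518, ANIA_05322 at 0.520 and ANIA_06308 at 0.525. The genes just below the threshold were ANIA_06691 at 0.4996, ANIA_11151 at 0.498, ANIA_11267 at 0.497, and ANIA_01451 and ANIA_02025 at 0.495. Inside the threshold, ANIA_01691 had 16.8, 18.2 and 19.6 RPKM in *celA*Δ 1, 2 and 3, against 7.24, 7.55 and 11.9 RPKM in controls 1, 2 and 3, the smallest rise of all 145 genes. ANIA_10035 had 5.11, 5.78 and 4.57 RPKM in *celA*Δ 1, 2 and 3, against 1.25, 1.23 and 2.73 RPKM in controls 1, 2 and 3. Outside it, ANIA_06691 had 15.2, 23.9 and 21.2 RPKM in *celA*Δ 1, 2 and 3, against 5.94, 5.13 and 10.6 RPKM in controls 1, 2 and 3. In each of these 3 genes control 3 had about the same place between the strains.

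At the upper end, ANIA_01941 had the highest position, 0.892. It had 327, 257 and 221 RPKM in *celA*Δ 1, 2 and 3, against 11.4, 13.9 and 192 RPKM in controls 1, 2 and 3. Control 3 was thus close to the lowest *celA*Δ library. ANIA_08195, at 0.879, had 101, 73.9 and 91.0 RPKM in *celA*Δ 1, 2 and 3, against 2.40, 4.04 and 60.4 RPKM in controls 1, 2 and 3. ANIA_00600, at 0.875, had 87.6, 91.1 and 92.4 RPKM in *celA*Δ 1, 2 and 3, against 17.6, 16.3 and 73.6 RPKM in controls 1, 2 and 3. In the last gene the *celA*Δ libraries almost coincided and control 3 reached 81.4% of their mean. ANIA_11477 (0.884) and ANIA_08592 (0.880) completed the 5 highest positions. ANIA_08592 had 20.2, 32.1 and 29.7 RPKM in *celA*Δ 1, 2 and 3, against 0.296, 0 and 18.0 RPKM in controls 1, 2 and 3, with 2 and 0 reads in controls 1 and 2 and 118 in control 3.

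The genes covered a wide range of levels. Their mean in *celA*Δ was 1.48 to 15294 RPKM, with 13 genes at 1000 or more, 63 at 100 to 1000, 55 at 10 to 100 and 14 under 10. The highest were a pair of direct neighbours, ANIA_00468 and ANIA_00467, both hypothetical proteins. ANIA_00468 had 13571, 15913 and 16399 RPKM in *celA*Δ 1, 2 and 3, against 1086, 1117 and 9245 RPKM in controls 1, 2 and 3. ANIA_00467 had 10633, 16830.0 and 14905 RPKM in *celA*Δ 1, 2 and 3, against 665, 548 and 6245 RPKM in controls 1, 2 and 3. These transcripts were abundant in every library, and the *celA*Δ mean was 13.9-fold that of controls 1 and 2 in ANIA_00468 and 23.3-fold in ANIA_00467.

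In 4 others of the 10 highest genes controls 1 and 2 were at most 17 RPKM. ANIA_03783, a hypothetical protein of 261 coding bases, had 3407, 10134 and 9471 RPKM in *celA*Δ 1, 2 and 3, against 10.3, 1.16 and 2284 RPKM in controls 1, 2 and 3. ANIA_11477, of the same coding length, had 1879.8, 2987 and 3737 RPKM in *celA*Δ 1, 2 and 3, against 1.03, 0 and 1146 RPKM in controls 1, 2 and 3. In reads, ANIA_11477 had 2276, 4058 and 4074 in *celA*Δ 1, 2 and 3, against 1, 0 and 1079 in controls 1, 2 and 3. It had the largest rise of all, 10.92, followed by ANIA_03783 with 10.44, and in both *celA*Δ 1 was the lowest *celA*Δ library. ANIA_08829 had 975, 2739 and 3224 RPKM in *celA*Δ 1, 2 and 3, against 17, 15.1 and 653 RPKM in controls 1, 2 and 3. ANIA_07990 had 591, 1330.3 and 1515 RPKM in *celA*Δ 1, 2 and 3, against 2.55, 3.58 and 384 RPKM in controls 1, 2 and 3. In these genes, too, *celA*Δ 1 was below *celA*Δ 2 and 3 and control 3 lay between *celA*Δ 1 and the other controls.

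In 3 of the other 4 of the 10 highest genes *celA*Δ 1 was not set apart from *celA*Δ 2 and 3. ANIA_10847 had 2941, 3001 and 3054 RPKM in *celA*Δ 1, 2 and 3, against 584, 539 and 2341 RPKM in controls 1, 2 and 3. ANIA_03848 had 2606, 3110.1 and 2307 RPKM in *celA*Δ 1, 2 and 3, against 209.5, 166 and 1629.7 RPKM in controls 1, 2 and 3. ANIA_05339 had 1221, 1053 and 1070.4 RPKM in *celA*Δ 1, 2 and 3, against 79.9, 75.8 and 682 RPKM in controls 1, 2 and 3. The fourth, ANIA_01754, is a member of a neighbouring pair described below with its values. In ANIA_10847 control 3 reached 78.1% of the *celA*Δ mean, the highest share among these 10 genes, and in ANIA_08829 28.3%, the lowest.

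**Figure D3:**
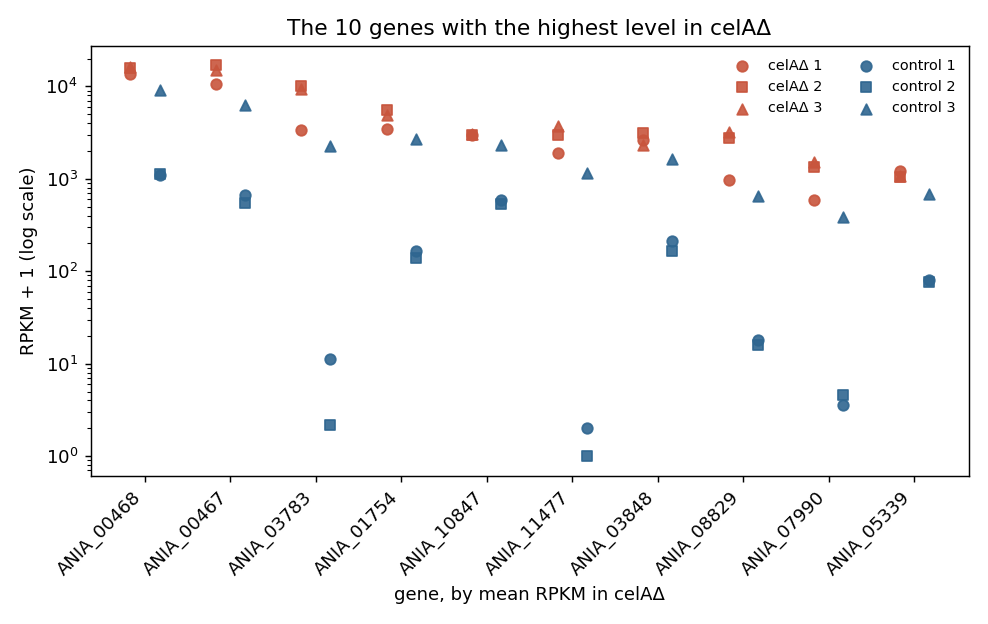
RPKM + 1 on a log axis for the 10 genes with the highest mean RPKM in *celA*Δ, with *celA*Δ libraries left (red) and control libraries right (blue) at each gene, and the symbol giving the replicate number. Control 3 (blue triangles) stands well above controls 1 and 2 in each gene, and *celA*Δ 1 (red circles) stands below *celA*Δ 2 and 3 most clearly in ANIA_03783, ANIA_08829 and ANIA_07990.

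Of the 10 genes with the largest rise, 7 have not yet been described. ANIA_09054 had 548, 837 and 918 RPKM in *celA*Δ 1, 2 and 3, against 0.927, 0.694 and 47.3 RPKM in controls 1, 2 and 3. It stood out because control 3, at 6.16% of the *celA*Δ mean, was the lowest relative to *celA*Δ of all 145 genes. ANIA_06862 had 391, 1164 and 1588 RPKM in *celA*Δ 1, 2 and 3, against 0.890, 5 and 136 RPKM in controls 1, 2 and 3. ANIA_02471 had 273, 909 and 1006 RPKM in *celA*Δ 1, 2 and 3, against 4.73, 0 and 146 RPKM in controls 1, 2 and 3. ANIA_00635 had 516, 1396 and 1392 RPKM in *celA*Δ 1, 2 and 3, against 8.08, 5.11 and 349.9 RPKM in controls 1, 2 and 3. In these 3 genes *celA*Δ 1 had 28.4, 28.5 and 37.0% of the mean of *celA*Δ 2 and 3, and control 3 was nearer to *celA*Δ 1 than *celA*Δ 1 was to *celA*Δ 2 in RPKM. ANIA_03968 had 93.1, 286 and 258 RPKM in *celA*Δ 1, 2 and 3, against 0, 0 and 51.5 RPKM in controls 1, 2 and 3. With no read in controls 1 and 2, its *celA*Δ mean was at least 65.3-fold higher than 3 reads in each of these libraries would give, a limit that covers counting error only. ANIA_09194 had 87.0, 329 and 335 RPKM in *celA*Δ 1, 2 and 3, against 0, 0.607 and 38.6 RPKM in controls 1, 2 and 3. ANIA_11157 had 80.7, 288 and 184 RPKM in *celA*Δ 1, 2 and 3, against 0.717, 0 and 31.7 RPKM in controls 1, 2 and 3. Again *celA*Δ 1 was the lowest of the *celA*Δ libraries in all 3.

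The spread among the *celA*Δ libraries did not enter the rule, although the authors' test, which all listed genes had passed, depends on it. Over all 145, *celA*Δ 1 minus the mean of *celA*Δ 2 and 3 had a median of -0.11 in log2(RPKM + 1), and 94 genes were within 0.5 of 0. Another 41 genes were lower in *celA*Δ 1 by more than 0.5, 21 of them by more than 1, and 10 genes were higher by more than 0.5. Of all 642 listed genes with a higher mean in *celA*Δ, 29.0% were lower by more than 0.5, against 28.3% of the 145. Lower by more than 1 were 10.0% against 14.5%, and higher by more than 0.5 were 8.3% against 6.9%. Within the 145 genes the difference of *celA*Δ 1 was unevenly distributed. Among the 40 genes with a rise under 2 its median was -0.01, and among the 62 with a rise of 2 to 4 it was -0.03. Among the 43 with a rise of 4 or more it was -0.66, and 26 of these were lower by more than 0.5 and 3 higher by more than 0.5. With the libraries scaled to the median of the listed genes the median over all 145 genes was 0.045 and that over the 43 genes was -0.50. This is 1 library against 2, with no test possible. Across the 145 genes the rise and the difference of *celA*Δ 1 had a Pearson correlation of -0.58 and a Spearman correlation of -0.41. The genes share the same libraries, and the rise contains *celA*Δ 1, so this is a description only. The position and the difference of *celA*Δ 1 had correlations of -0.01 (Pearson) and 0.00 (Spearman).

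**Figure D4:**
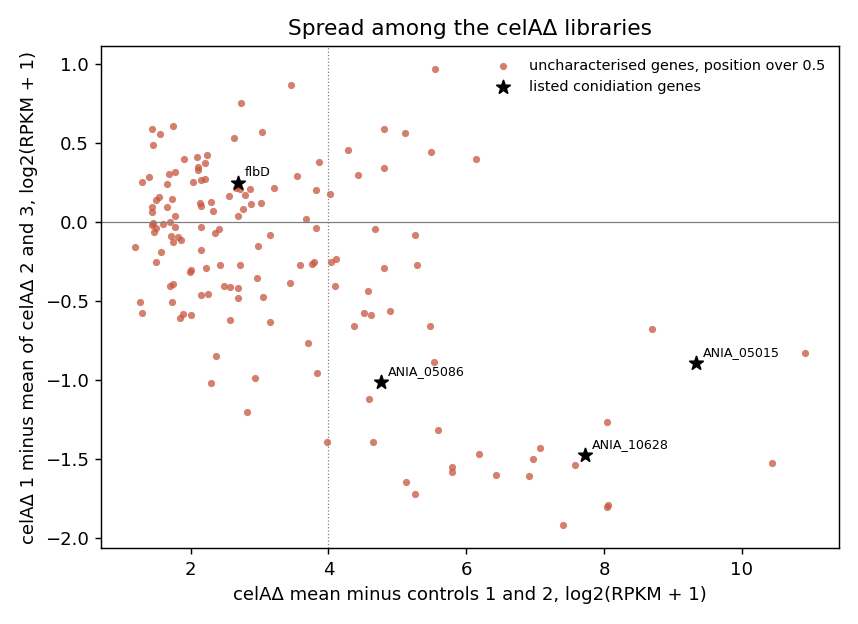
*celA*Δ 1 minus the mean of *celA*Δ 2 and 3 (vertical axis) against the rise (horizontal axis), both in log2(RPKM + 1), for the 145 genes (points) and the 4 listed conidiation genes (stars), with a dotted line at a rise of 4. To the right of the line 26 of the 43 genes are lower in *celA*Δ 1 by more than 0.5, and so are 3 of the 4 conidiation genes.

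The lowest relative levels in *celA*Δ 1 were those of ANIA_09194 (-1.92), ANIA_02471 (-1.80), ANIA_06862 (-1.79), ANIA_05654 (-1.72) and ANIA_05938 (-1.65). ANIA_05654 had 29.6, 99.2 and 100.4 RPKM in *celA*Δ 1, 2 and 3, against 0.725, 0.815 and 13.4 RPKM in controls 1, 2 and 3. ANIA_05938 had 15.3, 50.7 and 49.1 RPKM in *celA*Δ 1, 2 and 3, against 0, 0 and 6.43 RPKM in controls 1, 2 and 3. In all 5 genes *celA*Δ 1 was at 26.2 to 30.6% of the mean of *celA*Δ 2 and 3 and still above control 3. ANIA_05938 had no read in controls 1 and 2, and its *celA*Δ mean was at least 36.6-fold higher than 3 reads in each of them would give. At the other end, ANIA_04879 (0.97) had 134, 64.0 and 72.2 RPKM in *celA*Δ 1, 2 and 3, against 2.45, 0 and 25.8 RPKM in controls 1, 2 and 3. ANIA_09191 (0.87) had 119, 64.7 and 64.2 RPKM in *celA*Δ 1, 2 and 3, against 8.20, 4.74 and 31.9 RPKM in controls 1, 2 and 3. ANIA_04696 (0.76) had 99.9, 60.6 and 56.8 RPKM in *celA*Δ 1, 2 and 3, against 9.99, 9.51 and 43.0 RPKM in controls 1, 2 and 3. Here *celA*Δ 1 was the highest library, so the set did not vary as 1 block. ANIA_00303 (0.61) and ANIA_03097 (0.59) varied in the same direction, with 153 and 152% of the mean of *celA*Δ 2 and 3 in *celA*Δ 1.

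Other listed genes showed the same dependence in part. The 151 annotated genes with a higher mean in *celA*Δ and a position over 0.5 had a median difference of *celA*Δ 1 of 0.08 at a rise under 2 (55 genes), 0.11 at 2 to 4 (61 genes) and -0.83 at 4 or more, where 24 of 35 genes were lower by more than 0.5. The 161 uncharacterised genes at or under a position of 0.5 had medians of -0.15 (101 genes), -0.58 (47 genes) and -0.17 (13 genes). In these, 5 of the 13 genes with a rise of 4 or more were lower by more than 0.5. The 161 annotated genes at or under a position of 0.5 had medians of -0.14 (115 genes), -0.30 (35 genes) and -0.47 (11 genes). Of these 11 genes, 5 were lower by more than 0.5. The differences between the sets were not tested.

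Genes of conidiation, the marks of conidiophores and conidia that a mycelial sample could hold, were looked up beside these values. Of 11 conidiation loci, *brlA*, *abaA* and *wetA* among them, only *flbD* was among the listed genes, and the other 10 were not analysed here. Only genes that passed the authors' selection were listed, so the levels of the other 10 are unknown. The 642 listed genes with a higher mean in *celA*Δ had a median position of 0.46. With the genes that the annotation ties to conidia or spores, the list had 4 listed genes, none of them among the 145. All 4 were higher in *celA*Δ with a position over 0.5. Their summed level was 1623, 2517 and 3389 RPKM in *celA*Δ 1, 2 and 3, against 41.0, 40.7 and 1247 RPKM in controls 1, 2 and 3. In the sum, too, *celA*Δ 1 was the lowest *celA*Δ library, and control 3 was far above the other controls. Most of the sum in the *celA*Δ libraries and in control 3 came from 1 gene, ANIA_05015, so it largely repeats that gene. ANIA_05015, annotated as conidiation-specific protein 10, had 1128, 1731 and 2529 RPKM in *celA*Δ 1, 2 and 3, against 2.17, 1.22 and 943 RPKM in controls 1, 2 and 3. ANIA_05086, a conidium-specific protein, had 136, 268 and 283 RPKM in *celA*Δ 1, 2 and 3, against 5.33, 9.30 and 57.8 RPKM in controls 1, 2 and 3. The regulator *flbD* had 234, 183 and 212 RPKM in *celA*Δ 1, 2 and 3, against 33.1, 30.1 and 159 RPKM in controls 1, 2 and 3. In contrast to the other genes of the list it was not lower in *celA*Δ 1. The part of conidiation in the levels of the 145 genes was not tested.

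Apart from the loci left out at the start, the rule did not use the place of the genes in the genome. All 145 were found among the 10516 loci of assembly ASM1142v1, and 50 of them had a listed gene as a direct neighbour. In 6 cases the neighbours were both among the 145, which gives 12 genes. In the remainder, 40 other listed genes stood next to a member, 26 of them higher in *celA*Δ (14 with a position over 0.5) and 14 lower. Of all 1375 listed genes, 642 were higher, with a median position of 0.46, and 733 were lower. Whether neighbours were more alike than other listed genes was not tested. A lower neighbour is shown for a pair of members, as examples picked without a set rule. The conserved hypothetical gene ANIA_08397 had 7.15, 12.7 and 10.6 RPKM in *celA*Δ 1, 2 and 3, against 0.497, 0 and 3.57 RPKM in controls 1, 2 and 3. Its neighbour ANIA_08396, a putative pyruvate decarboxylase, the enzyme that turns pyruvate into acetaldehyde, had 38.0, 54.4 and 52.1 RPKM in *celA*Δ 1, 2 and 3, against 239.8, 233 and 97.5 RPKM in controls 1, 2 and 3. ANIA_04696 stood next to ANIA_04695, the major protein of the Woronin body, which plugs septal pores of damaged hyphae, with 712, 362 and 418 RPKM in *celA*Δ 1, 2 and 3, against 1038, 1139 and 988 RPKM in controls 1, 2 and 3.

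Among the 6 neighbouring pairs, the levels of partners were unequal in most. ANIA_01754 had 3493, 5504 and 4854 RPKM in *celA*Δ 1, 2 and 3, against 166, 139 and 2669.5 RPKM in controls 1, 2 and 3. Its partner ANIA_01753 had 512, 447 and 404 RPKM in *celA*Δ 1, 2 and 3, against 108, 95.8 and 276 RPKM in controls 1, 2 and 3. The rise was 4.89 in ANIA_01754 and 2.14 in ANIA_01753, and *celA*Δ 1 was the lowest *celA*Δ library in the one and the highest in the other. ANIA_10250 had 578, 527 and 494 RPKM in *celA*Δ 1, 2 and 3, against 33.1, 30.6 and 316 RPKM in controls 1, 2 and 3. ANIA_02004, beside it, had 386, 318 and 275 RPKM in *celA*Δ 1, 2 and 3, against 30.6, 14.8 and 93.4 RPKM in controls 1, 2 and 3. This pair ranked the *celA*Δ libraries alike, but control 3 was at 59.3% of the *celA*Δ mean in ANIA_10250 and at 28.6% in ANIA_02004. ANIA_06308 had 183, 254 and 186 RPKM in *celA*Δ 1, 2 and 3, against 12.6, 10.5 and 53.6 RPKM in controls 1, 2 and 3. ANIA_06309 had 56.0, 66.5 and 73.6 RPKM in *celA*Δ 1, 2 and 3, against 16.9, 14.4 and 36.7 RPKM in controls 1, 2 and 3. The rise was larger in ANIA_06308, 4.04, than in ANIA_06309, 1.99. ANIA_02228 had 929, 834 and 818 RPKM in *celA*Δ 1, 2 and 3, against 148, 144 and 599 RPKM in controls 1, 2 and 3. ANIA_11331, next to it, had 7, 9 and 7 reads in *celA*Δ 1, 2 and 3, against 0, 0 and 2 reads in controls 1, 2 and 3, too few to compare with its partner. ANIA_08573 and ANIA_08574 had a rise of 2.0 and 1.5. Of the reads of ANIA_08573 82.5% were unique, so part of its RPKM came from reads that matched elsewhere too.

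**Figure D5:**
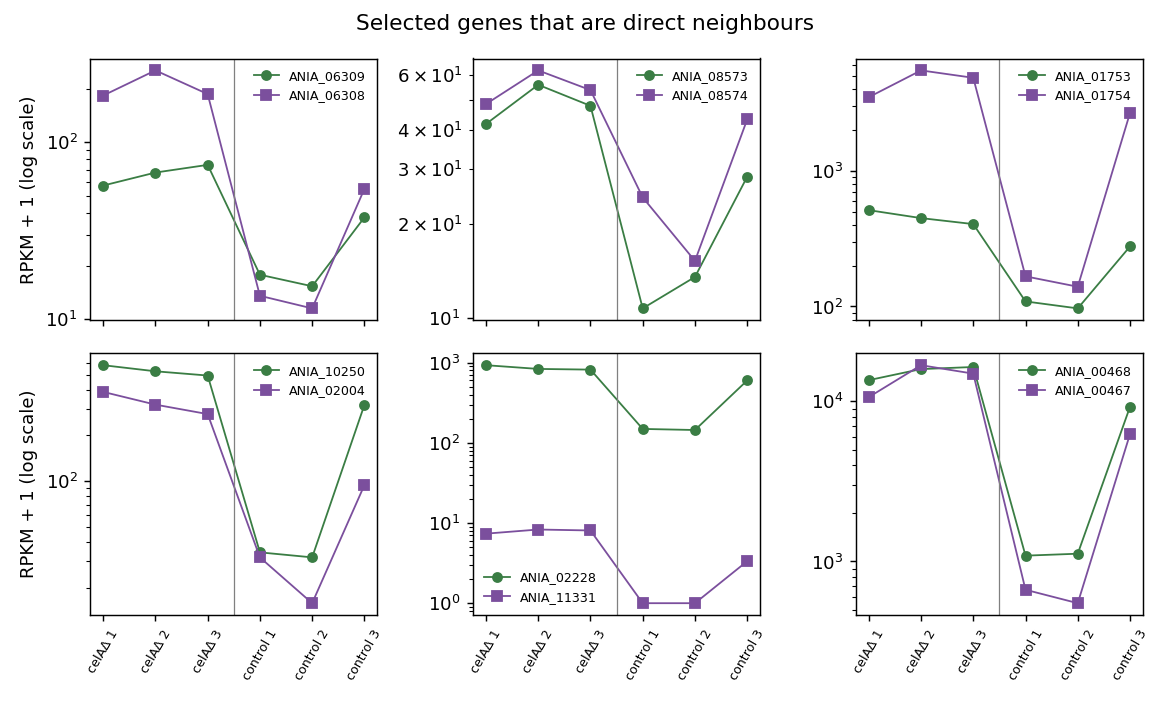
RPKM + 1 on a log axis in the *celA*Δ libraries (left of the grey line) and the control libraries (right of it) for the 6 pairs of direct neighbours, with 1 panel a pair and its own axis range. The lines only join the values of a gene; in each panel both genes are higher in control 3 than in controls 1 and 2 and lower than in every *celA*Δ library.

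Some members stood next to an annotated gene with a like pattern. ANIA_10629 had 53.6, 157 and 167 RPKM in *celA*Δ 1, 2 and 3, against 1.86, 0.463 and 44.9 RPKM in controls 1, 2 and 3. Its neighbour ANIA_10628, annotated as similar to the SpoC1-C1C protein of the *spoC1* cluster of conidium-specific genes, had 125, 335 and 365 RPKM in *celA*Δ 1, 2 and 3, against 0.394, 0 and 87.2 RPKM in controls 1, 2 and 3. In *celA*Δ 1 ANIA_10629 was at 33.0% and ANIA_10628 at 35.8% of the mean of *celA*Δ 2 and 3. ANIA_02471 stood next to ANIA_02472, a putative protein phosphatase with a position of 0.76, which had 128, 281 and 262 RPKM in *celA*Δ 1, 2 and 3, against 0, 0.618 and 62.5 RPKM in controls 1, 2 and 3. ANIA_07990 stood next to ANIA_07989, a putative phosphatidylserine decarboxylase, which makes phosphatidylethanolamine, with 250.0, 634 and 599 RPKM in *celA*Δ 1, 2 and 3, against 10.1, 8.13 and 236 RPKM in controls 1, 2 and 3. In these annotated neighbours, too, *celA*Δ 1 was the lowest *celA*Δ library. It was the highest in some other annotated neighbours with a position over 0.5. ANIA_09192, next to ANIA_09191, had 75.3, 44.5 and 36.1 RPKM in *celA*Δ 1, 2 and 3. ANIA_06996 had 198, 133 and 162 RPKM, while *celA*Δ 1 was the lowest *celA*Δ library in the member beside it, ANIA_06995. ANIA_05339 overlaps ANIA_05338, a flavin-binding monooxygenase-like gene with 111, 112 and 131 RPKM in *celA*Δ 1, 2 and 3, against 9.86, 16.1 and 91.2 RPKM in controls 1, 2 and 3. As the strand setting of the counting is not given in the sources used here, reads in their shared stretch may belong to either gene.

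The coding length of the 145 genes was 156 to 4689 bases, with a median of 999, and 46 were under 600 bases, 15 of them under 300. The 161 uncharacterised genes at or under a position of 0.5 included 34 under 600 bases and the 151 annotated genes with a position over 0.5 included 5. Short genes were more frequent where the rise was large, with 7 of 40 under 600 bases at a rise under 2, 18 of 62 at 2 to 4, and 21 of 43 at 4 or more. The median coding length in these groups was 1267.5, 994.5 and 621 bases. The correlation of rise and length across the 145 genes was -0.29 (Pearson) and -0.33 (Spearman). The 161 uncharacterised genes at or under a position of 0.5 did not show this. Under 600 bases were 19 of 101 at a rise under 2, 15 of 47 at 2 to 4, and 0 of 13 at 4 or more. Their correlation of rise and length was 0.02 (Pearson) and -0.06 (Spearman). Among the 151 annotated genes with a position over 0.5, 0 of 55, 1 of 61 and 4 of 35 were under 600 bases in the same rise groups. The median coding length of these groups was 1557, 1566 and 1371 bases. The link of length and rise is thus not shown to be particular to the 145 genes, and differences between the sets were not tested.

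The depth limited the low genes. In 81 of the 145 genes every library had 20 or more reads. Controls 1 and 2 each had at most 3 reads in 21 genes, and no read in 9. In 4 genes every control library had at most 3 reads, and in 1 of them, ANIA_11269, so had every *celA*Δ library, with 2, 3 and 2 reads in *celA*Δ 1, 2 and 3, against 0, 0 and 1 read in controls 1, 2 and 3. Its values rest on these few reads. Controls 1 and 2, whose difference the rule did not use, were within 0.5 of each other in log2(RPKM + 1) in 104 genes and more than 1 apart in 13, with a median difference of 0.01. Reads that matched more than 1 gene mattered in 2 genes. ANIA_10649 had 13.7% unique reads, so its RPKM could not be assigned to it alone, and ANIA_08573 was named above.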

How the data were processed

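RNA-Seq was performed by the authors on 3 *celA*Δ and 3 control cultures. The authors trimmed the reads in CLC Genomics Workbench 9.0.1 and mapped them to the FGSC A4 transcriptome with up to 3 hits per read. They deposited unique gene reads, that is raw counts, and RPKM, in which reads are divided by gene length and mapped reads. They also deposited an unadjusted p-value of their own test and the mean RPKM of each strain, which were not used. Mapped totals per library were derived from reads, length and RPKM. In the supplementary sheet of mapped reads the names of control 2 and *celA*Δ 2 stand in each other's place relative to the table. The names of the table were used. Under them *argB* had 2467 RPKM in *celA*Δ 2 and 1.02 RPKM in control 2, as in the other libraries of each strain. All lengths are multiples of 3 and are called coding lengths.

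The genes and lists were chosen with earlier results of these data known. Named genes are the 10 highest, the 10 with the largest rise, the 5 highest and 5 lowest positions with the 5 genes just outside, genes next to another member or to a listed conidiation gene, and the 5 lowest and 5 highest differences of *celA*Δ 1. Other genes are named as neighbours, as conidiation genes, or as the deleted locus and its marker. ANIA_08397 is named as an example of a member with a lower neighbour, without a set rule. The members with fewest or least unique reads are also named, chosen after their values were seen. Counts were fitted with edgeR 4.0.16 (R 4.3.3, mapped totals as library sizes, no scaling factors, two-sided), and the fit was tested on simulated data. The common biological coefficient of variation was 46.8%. Labels call the cultures biological replicates. Alternatives were TMM factors, DESeq2 1.42.0, limma 3.58.1 on log2(RPKM + 1) and log2(RPKM + 0.1), a mean RPKM of at least 1, the replicate number as a block, and each library left out. Gene order came from assembly ASM1142v1. Protein and promoter features were not analysed here. Python 3.11.15 (pandas 2.3.3, matplotlib 3.10.9) was used for tables and plots.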

Additional observations from a re-analysis of the deposited data

How the results depend on the processing

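The number of called genes among the 145, 116 with all libraries, was 100 with TMM factors, 136 with DESeq2, 143 and 144 with limma on log2(RPKM + 1) and log2(RPKM + 0.1), and 114 of the 144 genes with a mean RPKM of at least 1, all higher in *celA*Δ. In these fits 39.2, 44.6, 43.3, 46.1 and 40.9% of all genes tested were called higher. With 1 library left out it ranged from 37 to 145. It was 59, 55 and 51 without *celA*Δ 1, 2 and 3, and 49, 37 and 145 without controls 1, 2 and 3, where 27.1 to 45.4% of all listed genes were called higher. The median log2 fold change ranged from 1.53 to 2.97 over the same fits, the highest without control 3. Over all listed genes 992 to 1321 were called with 1 library left out, and 959 with DESeq2, which differed in test and scaling and had a median log2 fold change of all listed genes of -0.36, against -1.04 in edgeR. Same-numbered cultures did not all vary alike, which does not settle whether they were grown as pairs. Deviations of same-numbered cultures correlated at 0.19, -0.19 and 0.16, and with the number as a block 139 of the 145 genes and 1258 of all listed genes were called (43.6% of all listed genes higher), with a median log2 fold change of 2.17.

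The rule gave 166 genes with log2(RPKM + 0.1), 141 with reads per mapped total in place of RPKM (139 of them shared), 172 and 114 with a threshold of 0.4 and 0.6, and 144 with a mean RPKM of at least 1. The median position of 0.69 became 0.72 with log2(RPKM + 0.1) and 0.61 with libraries scaled to the median of the listed genes. It was 0.70 to 0.71 with a library left out. The median difference of *celA*Δ 1 from *celA*Δ 2 and 3 over all 145 genes, -0.11, turned to 0.045 under that scaling, and the cause was not tested. Over the 43 genes with a rise of 4 or more it was -0.50 under that scaling and -0.66 over the 39 of them with 100 or more reads in every *celA*Δ library, both chosen after seeing the data. Of 564 values of the named genes under these alternatives, 488 moved by less than 1 SD and 0 reversed. Of the 76 that moved further, 42 came from leaving out control 3. The SD here is that of each gene among replicates in log2(RPKM + 1), pooled over both strains. In the 145 genes it contains the gap of control 3 that the rule required, so it is a wide measure. Its median over these genes was 0.85, against 0.25 over the *celA*Δ libraries alone. A move of less than 1 SD therefore does not show that a value was stable.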
